A study of Mus musculus with 16 samples.

Results

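Interferon-induced genes were followed in gonadal white adipose tissue (gWAT) of mice that lack *Mboat7*, a lysophosphatidylinositol acyltransferase, in adipocytes. The set held 32 genes of the 19373 in the expression table. Of these, 31 were listed from general knowledge of the interferon response, and *Ubd* was selected on its large rise on high-fat diet (HFD) in these same mice. All 32 were found in the table, and 29 passed the limit for testing of at least 1 FPKM in at least 4 mice. FPKM counts sequenced fragments relative to exon length in kilobases and to the library's mapped total.

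RNA was sequenced from 16 male C57BL/6J mice, 4 in each of 4 groups, fed chow or HFD for 20 weeks. Control mice (*Mboat7* flox/flox) carry the floxed allele alone, and *Mboat7* ASKO mice carry it with a Cre recombinase driven by the adiponectin promoter, so that both genotypes share the floxed allele. Cre removes *Mboat7* from adipocytes only, so macrophages, endothelial cells and other stromal cells retain it. The listed level of *Mboat7* ran from 0.902 to 4.99 FPKM in chow-fed control mice and from 0 to 2.89 FPKM in chow-fed *Mboat7* ASKO mice, a difference of -1.12 on the log2(FPKM + 1) scale (two-sided exact permutation p = 0.143, n = 4 and 4, smallest possible p 0.0286). On HFD it ran from 0 to 2.15 FPKM and from 0 to 2.6 FPKM, so that the groups overlapped (log2 difference -0.02, two-sided exact permutation p = 1, n = 4 and 4). The transcript level therefore separated the genotypes on neither diet. By other measures, the paper reports less MBOAT7 protein in gWAT of chow-fed *Mboat7* ASKO mice. It also reports less of the enzyme's main product in their gWAT on both diets.

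Interferons are secreted proteins, and those of type I and type III are released by cells that sense viral or misplaced nucleic acid. Type I and type III interferons act through a complex that holds STAT2 and IRF9 and binds the interferon-stimulated response element (ISRE) of target genes, and interferon-gamma acts through the gamma-activated site (GAS). The induced genes encode proteins that sense or degrade viral RNA, attack the vacuoles of intracellular microbes and tag proteins with ubiquitin-like modifiers. *Ubd* encodes FAT10, a ubiquitin-like modifier that sends its substrates to the proteasome, and it is known as a target of both interferon-gamma and tumor necrosis factor, the latter through NF-kappaB. In obese gWAT, macrophages accumulate and are known sources of inflammatory cytokines.

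*Ubd* lies on chromosome 17 at 37193892 to 37196095 on the plus strand of mm10 (ENSMUSG00000035186.6), with 1 annotated transcript of 931 bases whose exons overlap no other gene. Promoters of the members were read to show which of the sequence elements named above lie near *Ubd* and near the classical members. RefSeq promoters, from 250 bases before to 50 bases after the gene start on GRCm38.p6, were at hand for 25 of the 32 members. *Ifi27l2a*, *Iigp1*, *Mx1*, *Parp14*, *Rtp4*, *Usp18* and *Zbp1* were not matched. Below, 160 bases that end just before the RefSeq start are given 5′ to 3′ on the gene's strand for 5 members, with matches in capitals. *Ubd* (chr17:37193732-37193891, plus strand) has a kappaB match in capitals, *Irf1* (chr11:53769854-53770013, plus strand) a GAS match followed by a kappaB match, and *Isg15* (chr4:156200819-156200978, minus strand), *Ifit3* (chr19:34583369-34583528, plus strand) and *Gbp2* (chr3:142620503-142620662, plus strand) have ISRE matches.
Ubd: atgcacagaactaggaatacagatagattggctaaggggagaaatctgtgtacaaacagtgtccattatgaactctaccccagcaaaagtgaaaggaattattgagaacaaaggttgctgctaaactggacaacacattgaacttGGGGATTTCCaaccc
Irf1: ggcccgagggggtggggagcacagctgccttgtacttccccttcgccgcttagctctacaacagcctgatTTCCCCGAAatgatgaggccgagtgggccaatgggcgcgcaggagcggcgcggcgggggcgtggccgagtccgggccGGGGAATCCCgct
Isg15: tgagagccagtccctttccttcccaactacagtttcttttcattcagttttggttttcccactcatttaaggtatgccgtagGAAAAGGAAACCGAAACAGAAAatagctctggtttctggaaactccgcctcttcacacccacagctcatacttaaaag
Ifit3: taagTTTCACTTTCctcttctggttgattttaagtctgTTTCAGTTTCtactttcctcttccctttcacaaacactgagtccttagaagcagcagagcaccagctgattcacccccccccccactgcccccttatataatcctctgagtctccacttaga
Gbp2: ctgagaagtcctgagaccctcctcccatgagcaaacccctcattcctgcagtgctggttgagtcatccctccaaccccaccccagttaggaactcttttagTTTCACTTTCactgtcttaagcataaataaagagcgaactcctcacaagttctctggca

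The search letters were GAAANNGAAA for the ISRE and TTCNNNGAA for the GAS, both strands were read, and the kappaB motif was searched by its usual consensus. Neither ISRE nor GAS letters were found in the 300-base *Ubd* promoter, whose kappaB match begins 15 bases before the start. In *Isg15*, the modifier whose gene is a standard marker of interferon signalling, 3 overlapping ISRE matches begin 78, 72 and 66 bases before the start. The ISRE was matched in 14 of the 25 member promoters, against 4.0% of all 27025 promoters of the table. The GAS was matched in 8 of 25 (9.6% of all promoters) and the kappaB motif in 5 of 25 (9.6% of all promoters), these being *Ubd*, *Ifit2*, *Irf1*, *Gbp2* and *Bst2*. *Irf1* has a further RefSeq promoter (chr11:53770223-53770522) with none of these matches, and the promoter with the kappaB match was printed above. A match is a description of letters and was not tested as a binding site.

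The depth behind these levels was estimated from the FPKM values, and its part in their spread was not tested. Low values of 1473 genes with 1 annotated transcript lie on steps of whole fragments, from which the scale was estimated at 230000 to 400000 fragments per mouse (median 328500). Between 50.7% and 85.2% of low values lay within 0.2 of a step, against 40% if values were spread evenly. Across the 32 members and 16 mice, 158 of 512 values (30.9%) were listed at 0, against 42% over the whole table, and between 17 and 27 members were above 0 in a mouse. *Ppia*, a gene that every cell uses, was also listed at 0 in 9 mice, so a 0 here is a listed value and not evidence of absence. In bulk tissue, fewer cells of a type and less RNA per cell cannot be told apart.

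Only *Ubd* and *Ifi27l2a* were listed at high levels. Among the other 30 members the highest value in any mouse was 34.2 FPKM, for *Ifi35* in 1 *Mboat7* ASKO mouse on chow, and the highest mean over the 16 mice was 12 FPKM, for *Gbp2*. The mean over all mice was under 5 FPKM for 24 members and under 2 FPKM for 12. Only 7 members were above 0 in all 16 mice: *Ifit2*, *Irf1*, *Gbp2*, *Gbp7*, *Iigp1*, *Parp14* and *Ifi27l2a*.

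**Figure D1:**
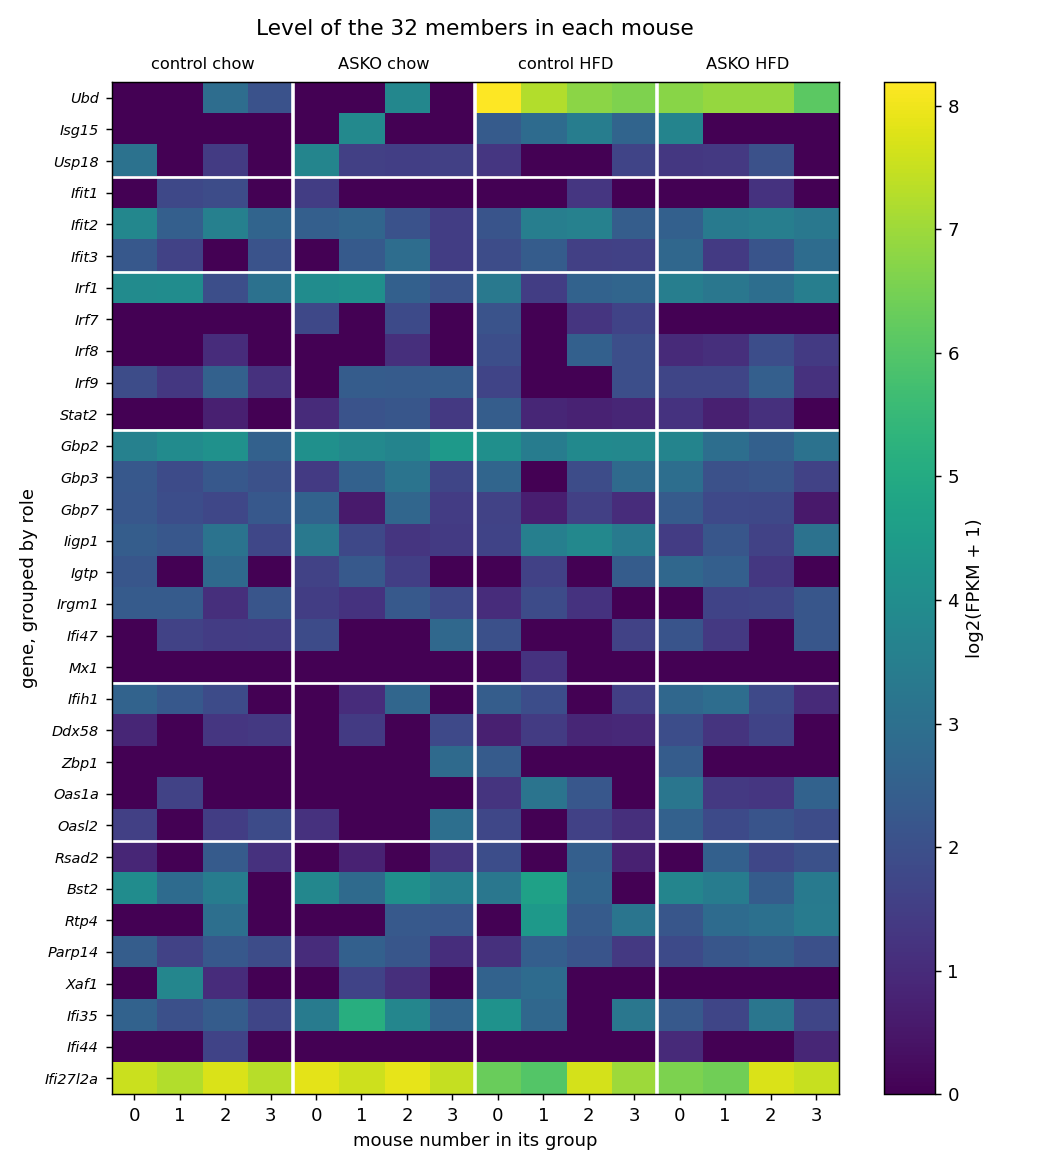
Level of each of the 32 members (rows, grouped by role) in each of the 16 mice (columns, by group and mouse number), as log2(FPKM + 1) by colour. *Ubd* is bright in all 8 HFD mice and darker in the 8 chow mice, *Ifi27l2a* is bright in all 16, and 158 of the 512 cells are at 0.

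*Ubd* was low or listed at 0 in every chow mouse and high in every HFD mouse. In control mice on chow it was listed at 0, 0, 6.61 and 3.18 FPKM, and in *Mboat7* ASKO mice on chow at 0, 0, 12.7 and 0 FPKM. In control mice on HFD it was 291, 150, 108 and 97.1 FPKM (162 ± 89.3, SD, n = 4), and in *Mboat7* ASKO mice on HFD it was 104, 118, 118 and 68.2 FPKM (102 ± 23.7, SD, n = 4). The lowest HFD mouse, at 68.2 FPKM, stood above the highest chow mouse, at 12.7 FPKM. On the estimated scale these values are about 22.6 to 108.5 fragments in HFD mice and at most 3.8 fragments in chow mice. The difference between diets was 5.96 ± 0.80 (SE) on the log2(FPKM + 1) scale in control and 5.71 ± 0.80 in *Mboat7* ASKO mice. It was the highest of all 13147 tested genes in control mice and ranked 4 in *Mboat7* ASKO mice. These diet differences chose the gene and carry no test, and both comparisons use different mice. With a pseudocount of 0.1 in place of 1 they were 7.74 and 8.22, since most chow values are at 0.

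Genotype was not used to choose *Ubd*. On HFD, the difference of *Ubd* between *Mboat7* ASKO and control mice was -0.55 ± 0.80 (SE) on the log2 scale, the groups overlapped, and the adjusted p was 0.993 by limma. Without control HFD mouse 0, at 291 FPKM, the difference was -0.22. On chow the genotype difference was -0.30 ± 0.80 (limma adjusted p = 1), and the difference between the diet changes of the genotypes was -0.24 ± 1.13 (limma adjusted p = 0.984).

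**Figure D2:**
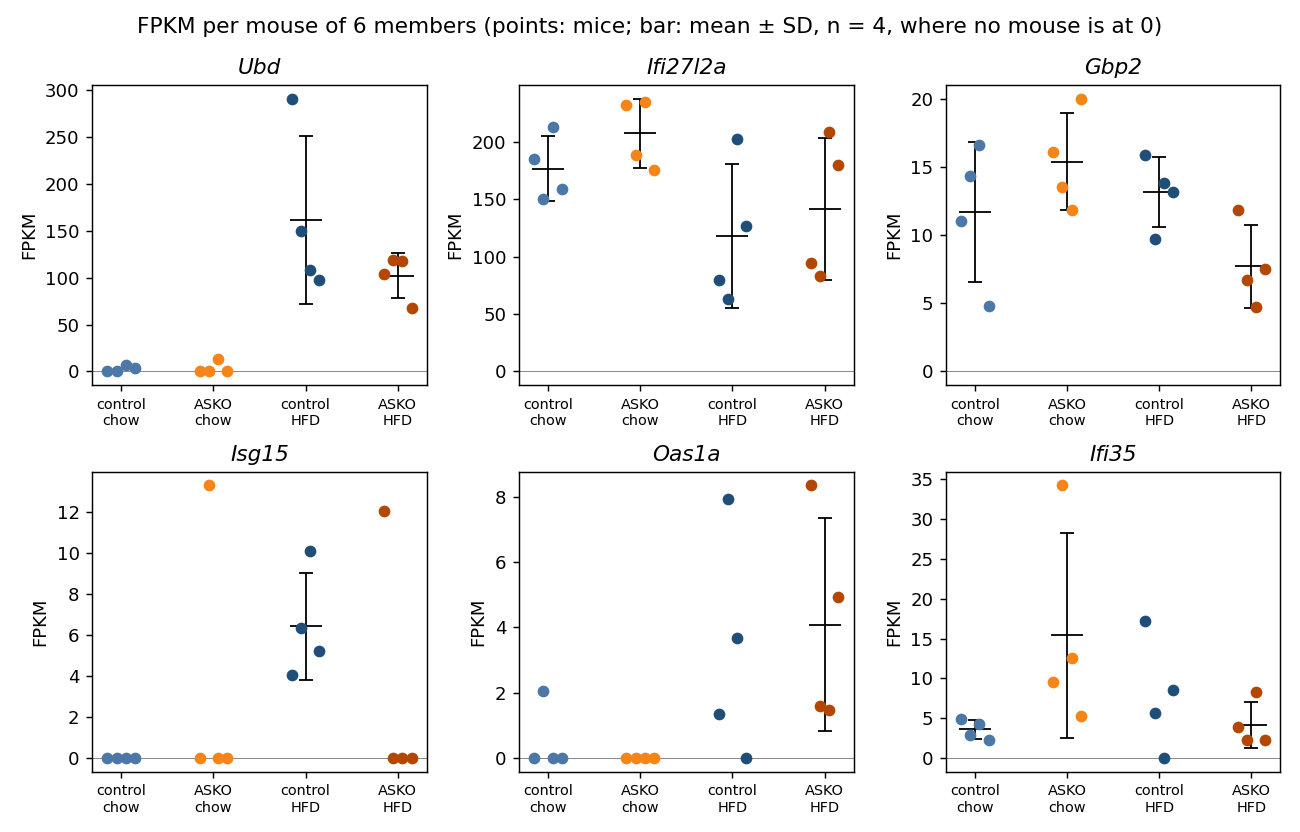
FPKM of *Ubd*, *Ifi27l2a*, *Gbp2*, *Isg15*, *Oas1a* and *Ifi35* in each mouse (points) by group, with the mean ± SD (n = 4) drawn only for groups in which no mouse is listed at 0. *Ubd* separates the diets in both genotypes (at most 12.7 FPKM on chow, at least 68.2 FPKM on HFD), whereas the HFD values of *Ifi27l2a*, 63.2 to 209 FPKM, overlap those on chow.

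The other 28 tested members were then compared between diets. In control mice 0 of the 28 passed limma's test (adjusted p under 0.05 and a log2 difference above 0.5 in size), where 2.91% of all tested genes passed (383 of 13147). At an unadjusted p under 0.05 there were 4 of 28, all higher on HFD (*Isg15*, *Irf7*, *Irf8* and *Stat2*), where 14.2% of all genes lay under that limit. In *Mboat7* ASKO mice 0 of the 28 passed, where 3.43% of all genes did (451 of 13147). There, 2 of 28 had an unadjusted p under 0.05, *Oas1a* higher and *Gbp2* lower, where 15.0% of all genes did. In control mice 14 of the 28 were higher on HFD and 14 lower, with a median log2 difference of -0.03 against 0.00 over all tested genes, and in *Mboat7* ASKO mice again 14 were higher and 14 lower, with a median of 0.07 against 0.03. The mean log2(FPKM + 1) of the 28 was 1.72 ± 0.31 (SD, n = 4 mice) in control mice on chow, 1.82 ± 0.15 in *Mboat7* ASKO mice on chow, 1.90 ± 0.11 in control mice on HFD and 1.97 ± 0.14 in *Mboat7* ASKO mice on HFD, and these ranges overlapped.

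Groups did not overlap for 3 of the 28 members in control mice, *Isg15* and *Stat2* with all HFD mice above and *Gbp7* with all HFD mice below, where the same held for 8.34% of all tested genes. In *Mboat7* ASKO mice it held for 1 of 28, *Oas1a* with all HFD mice above, where it held for 9.6% of all genes. These shares of the members lay near or below those of all genes.

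**Figure D3:**
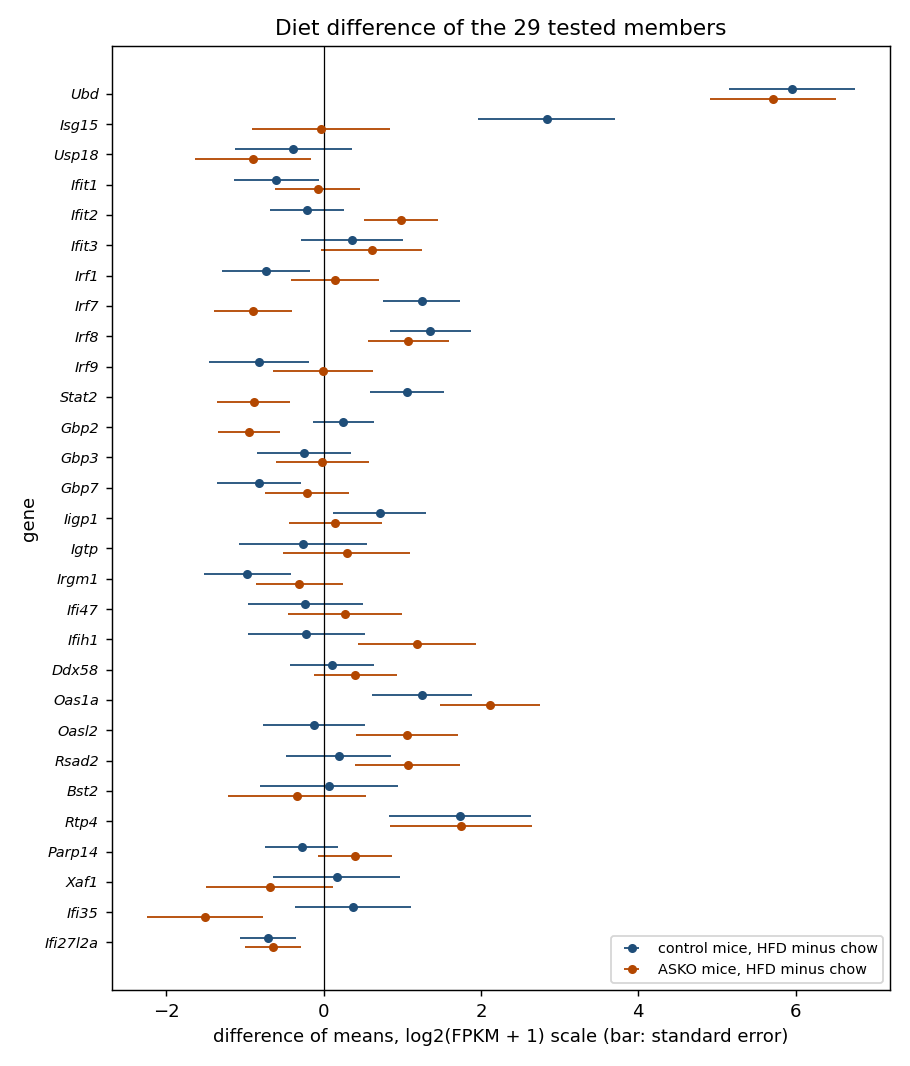
Difference between HFD and chow on the log2(FPKM + 1) scale (horizontal axis) for each of the 29 tested members, in control mice (blue) and *Mboat7* ASKO mice (orange), with the standard error from limma as bars. *Ubd* lies at 5.96 and 5.71, and the other members lie between -1.51 and 2.83 on both sides of 0.

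Among the other ubiquitin-like modifiers and their enzymes, *Isg15* was listed at 0 in all 4 control mice on chow and at 4.07, 6.35, 10.1 and 5.24 FPKM in control mice on HFD (limma adjusted p = 0.107, the lowest of the 28 in control mice). It reached the limit for testing in these 4 control HFD mice and in only 2 others, so it entered the test through the group in which it was high. In *Mboat7* ASKO mice it was 0, 13.3, 0 and 0 FPKM on chow and 12.1, 0, 0 and 0 FPKM on HFD, with no separation between diets (limma adjusted p = 0.996). The highest of all these *Isg15* values was about 3.2 fragments on the estimated scale. With only the 2 control groups in the fit the diet difference passed in control mice (limma adjusted p = 0.0118), and it also passed without *Mboat7* ASKO chow mouse 1 (adjusted p = 0.0311) or without *Mboat7* ASKO HFD mouse 0 (adjusted p = 0.0385), the 2 *Mboat7* ASKO mice with *Isg15* above 0. *Usp18*, the protease that removes ISG15 from proteins, ran from 0 to 12.2 FPKM on chow and from 0 to 3.1 FPKM on HFD, and its diet differences of -0.38 and -0.90 did not pass (limma adjusted p = 0.884 and 0.64).

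The IFIT proteins bind foreign RNA ends and block translation. *Ifit2* was the only one above 0 in every mouse, at 12.7, 4.62, 10.9 and 5.23 FPKM in control mice and 4.59, 5.41, 3.19 and 1.83 FPKM in *Mboat7* ASKO mice on chow. On HFD it was 3.38, 10.2, 11.1 and 4.36 FPKM and 4.68, 9.27, 10.3 and 8.75 FPKM. Its diet difference was -0.21 in control and 0.98 in *Mboat7* ASKO mice (limma adjusted p = 0.905 and 0.34), with overlapping groups in both genotypes. *Ifit3* ran from 0 to 6.68 FPKM and *Ifit1* from 0 to 2.76 FPKM over the 16 mice, and neither passed in any contrast.

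Among the transcription factors, *Stat2*, which joins IRF9 in the complex that binds the ISRE, was listed at 0, 0, 0.646 and 0 FPKM in control mice on chow and at 4.35, 0.82, 0.741 and 0.848 FPKM on HFD. The groups did not overlap and the difference of 1.06 ± 0.47 (SE) did not pass (limma adjusted p = 0.303). In *Mboat7* ASKO mice the values were 0.996, 3.25, 3.53 and 1.58 FPKM on chow and 1.27, 0.66, 1.22 and 0 FPKM on HFD, a difference of -0.89 ± 0.47 (limma adjusted p = 0.397). *Irf7*, the amplifier of type I interferon production, was listed at 0 in all control mice on chow and at 3.24, 0, 1.39 and 2.12 FPKM in control mice on HFD (limma adjusted p = 0.229). In *Mboat7* ASKO mice it was 2.41, 0, 2.55 and 0 FPKM on chow and at 0 in all 4 on HFD (limma adjusted p = 0.417). An antisense overlap with exons of *Phrf1* makes the *Irf7* level uncertain, as the strand setting of the counting was not given in the sources used here.

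*Irf8*, a factor of macrophage and dendritic cell development, was above 0 in 2 of 8 chow mice, at 1.05 and 1.13 FPKM, and in 7 of 8 HFD mice, at up to 4.74 FPKM. Its diet difference was 1.36 ± 0.52 (SE) in control and 1.07 ± 0.52 in *Mboat7* ASKO mice (limma adjusted p = 0.212 and 0.342). Without control HFD mouse 1, the control HFD mouse at 0, the former passed (difference 1.89, limma adjusted p = 0.0428). Only 2 chow mice reached the limit for testing, so *Irf8* entered the test through HFD mice, in which it was high. This pass is therefore not support for a diet difference. *Irf1*, the factor that drives many interferon-gamma targets, ran from 2.89 to 16 FPKM on chow and from 1.8 to 10.4 FPKM on HFD, and *Irf9* from 0 to 4.87 FPKM and from 0 to 4.55 FPKM. Neither passed, with adjusted p from 0.634 to 1 in the diet contrasts by limma.

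The guanylate-binding proteins and immunity-related GTPases are interferon-gamma targets that act on pathogen vacuoles. *Gbp2* had the highest mean of the 30 lower members and was 11.1, 14.3, 16.6 and 4.81 FPKM in control mice on chow and 15.9, 9.75, 13.8 and 13.1 FPKM on HFD. In *Mboat7* ASKO mice it was 16.1, 13.5, 11.8 and 20 FPKM on chow and 11.9, 6.71, 4.72 and 7.51 FPKM on HFD. The diet differences were 0.25 ± 0.39 (SE) and -0.95 ± 0.39 (limma adjusted p = 0.845 and 0.247). *Gbp7* was 3.72, 2.81, 2.35 and 3.82 FPKM in control mice on chow, all above the 2.09, 0.628, 1.92 and 1.03 FPKM of control mice on HFD, with a difference of -0.82 ± 0.53 that did not pass (limma adjusted p = 0.544). *Iigp1* ran from 1.41 to 13.3 FPKM. *Gbp3*, *Igtp*, *Irgm1* and *Ifi47* stayed at or below 7.83 FPKM, and none passed in either genotype. *Igtp* shares exon bases with *Irgm2* on the same strand, and *Ifi47* with *Olfr56*, so reads of these pairs may have been split. In all, 11 members share exon bases with another annotated gene, among them *Irf9* with *Rnf31*, and their levels are less certain for it. *Mx1* was listed above 0 in 1 mouse, at 1.28 FPKM, and was not tested.

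Among the nucleic acid sensors, *Oas1a*, which makes the 2-5A second messenger that activates RNase L, had a listed value of 0 in every chow-fed *Mboat7* ASKO mouse and of 8.35, 1.58, 1.46 and 4.94 FPKM in those on HFD (limma adjusted p = 0.0832). In control mice it was 0, 2.04, 0 and 0 FPKM on chow and 1.34, 7.93, 3.68 and 0 FPKM on HFD, a difference of 1.25 ± 0.63 (SE, limma adjusted p = 0.397). The *Oas1a* HFD values stand for at most about 5.5 fragments, and the gene entered the test through HFD mice, in which it was high. *Oasl2*, *Ifih1* (which encodes MDA5) and *Ddx58* (which encodes RIG-I) ran from 0 to 6.99, 6.61 and 2.82 FPKM, and no diet difference passed. *Zbp1*, a sensor of Z-form nucleic acid, was above 0 in 3 mice, at 4.14 to 6.06 FPKM, and was not tested. *Zbp1* lay just outside the limit for testing, while *Ifit1* and *Irf7*, both above 0 in 5 mice, lay just inside it.

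*Ifi27l2a*, which encodes a small membrane protein and is strongly induced by type I interferon, was the most abundant member on chow. It was 185, 150, 212 and 159 FPKM in control mice (177 ± 28, SD, n = 4) and 232, 188, 234 and 175 FPKM in *Mboat7* ASKO mice (208 ± 30.1) on chow. On HFD it was 79.5, 63.2, 203 and 126 FPKM in control mice (118 ± 62.6) and 94.5, 83.4, 209 and 180 FPKM in *Mboat7* ASKO mice (142 ± 62.1). The levels of 3 of the 4 control HFD mice and 2 of the 4 *Mboat7* ASKO HFD mice lay below those of all chow mice of their genotype, and the others lay within the chow range. The diet differences of -0.71 ± 0.36 (SE) and -0.65 ± 0.36 did not pass (limma adjusted p = 0.392 and 0.426).

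The remaining antiviral effectors did not pass either. *Rtp4*, a receptor transporter protein, was above 0 in 3 of 8 chow mice, at up to 6.93 FPKM, and in 7 of 8 HFD mice, at up to 20.1 FPKM, with differences of 1.73 ± 0.90 (SE) and 1.75 ± 0.90 (limma adjusted p = 0.41 and 0.383). *Ifi35* was 9.53, 34.2, 12.6 and 5.25 FPKM in *Mboat7* ASKO mice on chow and 3.85, 2.24, 8.26 and 2.29 FPKM on HFD, a difference of -1.51 ± 0.74 (limma adjusted p = 0.35). *Bst2*, which tethers budding virions, ran from 0 to 24.6 FPKM, *Rsad2*, which encodes viperin, from 0 to 4.7 FPKM, *Parp14* from 1.05 to 4.64 FPKM and *Xaf1* from 0 to 12.5 FPKM. *Ifi44* was above 0 in 3 mice and was not tested.

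Genotype was then compared within each diet for all 29 tested members, *Ubd* included. On chow 0 of 29 passed limma's test, where 0.00761% of all genes did (1 of 13147), and 2 had an unadjusted p under 0.05, where 4.8% of all genes did. These were *Stat2*, higher in *Mboat7* ASKO mice by 1.48 ± 0.47 (SE, limma adjusted p = 0.872), and *Ifi35*, higher by 1.57 ± 0.74 (limma adjusted p = 0.983). Both had groups that did not overlap, where 2.19% of all genes had such groups. *Ifi35* in control mice on chow was 4.93, 2.96, 4.23 and 2.3 FPKM, below all 4 *Mboat7* ASKO values given above.

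On HFD 0 of 29 passed, where 0.00761% of all genes did (1 of 13147), and 2 had an unadjusted p under 0.05 by limma, where 5.15% of all genes did. These were *Isg15* and *Irf7*, both lower in *Mboat7* ASKO mice, with limma adjusted p of 0.954 and 0.902. *Oasl2* was the 1 member whose groups did not overlap, where 3.38% of all genes had such groups. It was 2.34, 0, 2.02 and 1.13 FPKM in control mice and 4.77, 2.59, 3.38 and 2.78 FPKM in *Mboat7* ASKO mice, and the difference did not pass (limma adjusted p = 0.982). On HFD 19 of the 29 members were higher in *Mboat7* ASKO mice and 10 lower, with a median of 0.33 against 0.02 over all tested genes, and on chow 15 were higher and 14 lower, with a median of 0.01 against 0.00.

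The diet changes of the genotypes were compared by the interaction term. None of the 29 members passed in limma, where 0.0% of all genes passed (0 of 13147), and 4 had an unadjusted p under 0.05, where 6.29% of all genes did. These were *Isg15*, *Irf7*, *Stat2* and *Gbp2*, for each of which the change was lower in *Mboat7* ASKO mice, with limma adjusted p from 0.654 to 0.78. The interaction of *Stat2* was -1.95 ± 0.66 (SE) and that of *Gbp2* -1.20 ± 0.55. *Isg15* was above 0 in 6 of the 16 mice, *Irf7* in 5 and *Stat2* in 12.

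**Figure D4:**
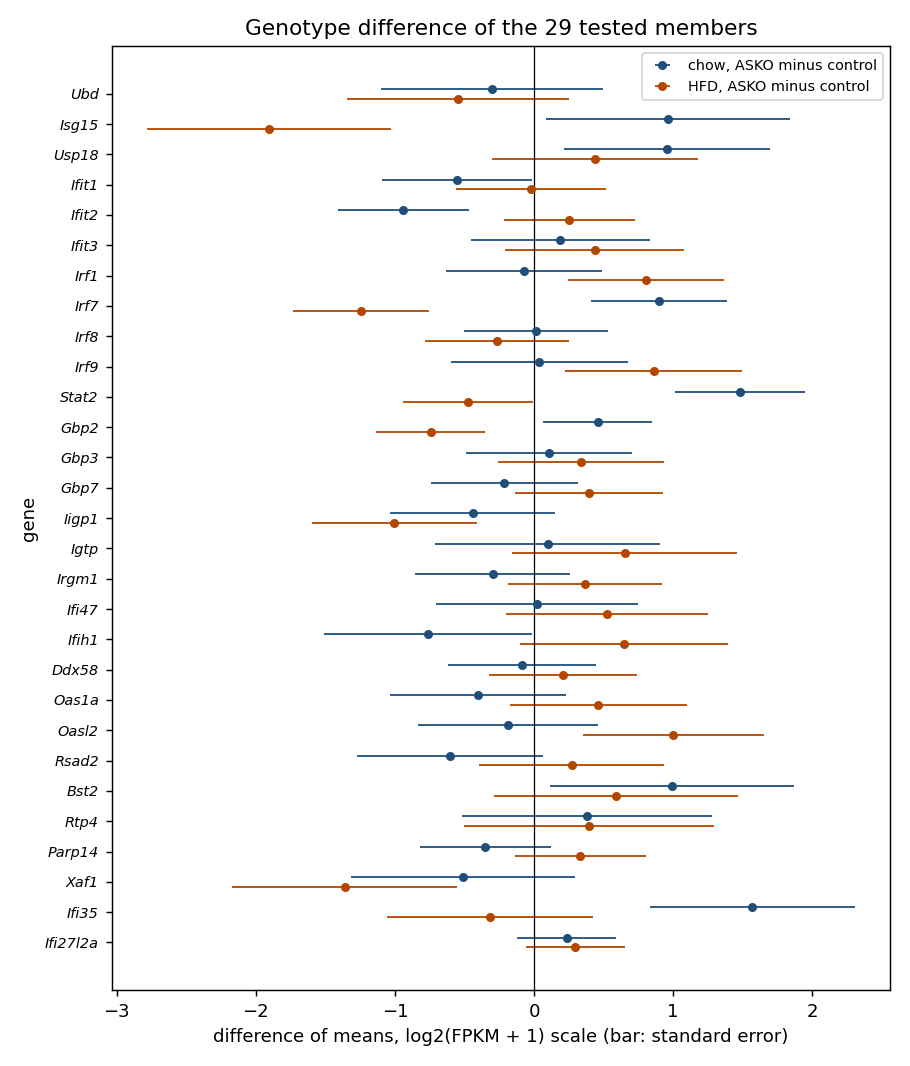
Difference between *Mboat7* ASKO and control mice on the log2(FPKM + 1) scale (horizontal axis) for each of the 29 tested members on chow (blue) and on HFD (orange), with the standard error from limma as bars. On HFD the values run from -1.91 (*Isg15*) to 1.0 (*Oasl2*), *Ubd* lies at -0.55, and no member passed on either diet.

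Genes upstream of the members were read from lists of general knowledge. Of 9 interferons and receptors, *Ifnb1* and *Ifng* were not among the rows used here and 5 were tested, and none passed in any contrast by limma. *Ifngr1*, the ligand-binding chain of the interferon-gamma receptor, was the most abundant, at 60.4 ± 10.4 FPKM (SD, n = 4) in control mice on chow and 69.8 ± 22.2 FPKM on HFD. Of 8 genes that signal from the receptors 6 were tested and none passed in any contrast by limma. Of 14 sensors and adaptors 11 were tested, and 1 passed for diet in *Mboat7* ASKO mice, where 3.43% of all genes did. This was *Irf5*, a factor downstream of Toll-like receptors, which fell from 231 ± 38.9 to 123 ± 33.0 FPKM (SD, n = 4, log2 difference -0.93, limma adjusted p = 0.0484). Its adjusted p lay just under the limit, and the alternatives were not examined for it. In control mice *Irf5* was 199 ± 31.7 FPKM on chow and 193 ± 37.7 FPKM on HFD (log2 difference -0.05, limma adjusted p = 0.973), and the interaction did not pass (limma adjusted p = 0.701).

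Of 55 other interferon-induced genes 41 were tested, and 1 of the 41 passed for diet in each genotype. Of all genes 2.91% passed in control and 3.43% in *Mboat7* ASKO mice, so the share that passed lay near the background. *Lgals3bp*, a secreted glycoprotein, rose on HFD in control mice from 5.19 ± 3.81 to 18.1 ± 4.3 FPKM (SD, n = 4, limma adjusted p = 0.041), and *Trim25*, the ubiquitin ligase that activates RIG-I, rose in *Mboat7* ASKO mice from a range of 0 to 1.07 FPKM to a range of 2.65 to 4.56 FPKM (limma adjusted p = 0.049). Neither passed in the other genotype (*Lgals3bp* in *Mboat7* ASKO mice limma adjusted p = 0.315, *Trim25* in control mice 0.457). Their adjusted p lay just under the limit, and the alternatives were not examined for them. The other tested genes of this list did not pass on either diet contrast. The log2 differences ran from -3.0 (*Cxcl10*) to 2.9 (*Ifi30*) in control mice. In *Mboat7* ASKO mice they ran from -2.5 (*Cxcl10*) to 2.8 (*Ifi30*). The median diet difference of the 41 was 0.41 in control and 0.46 in *Mboat7* ASKO mice, against 0.00 and 0.03 over all genes, and 29 and 30 of them were higher on HFD, where 50.1% and 51.4% of all genes were. Of 8 genes of ubiquitin-like conjugation 7 were tested and none passed, among them *Uba6*, whose enzyme activates FAT10 for conjugation, with diet differences of 0.98 and 0.93 (limma adjusted p = 0.37 and 0.384).

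Markers of other cells moved with diet alongside *Ubd*. Of 12 macrophage markers, all tested, 7 passed as higher on HFD in control and 8 in *Mboat7* ASKO mice by limma. Of all tested genes, 2.91% and 3.43% passed. By direction, 11 of the 12 were higher on HFD in control and 10 in *Mboat7* ASKO mice. *Mertk* was lower in both genotypes (log2 differences -0.57 and -0.68), and *Csf1r* in *Mboat7* ASKO mice (-0.43). The summed level of the 12 ran on chow from 239 to 293 FPKM in control and from 218 to 275 FPKM in *Mboat7* ASKO mice. On HFD it ran from 631 to 1046 FPKM and from 813 to 1291 FPKM. *Lyz2* had the highest mean of the 12 and weighs most in this sum. *Fcgr1* was at 0 in all control chow mice and at most 1.55 FPKM in *Mboat7* ASKO chow mice. *Trem2*, a receptor of lipid-associated macrophages, was at most 13.0 FPKM on chow and at least 28.8 FPKM on HFD, with log2 differences of 4.58 and 4.93. Both genes entered the test through HFD mice, in which they were high. Their passes, *Trem2* in both genotypes and *Fcgr1* in control mice, are therefore not support for a diet difference. Of 8 dendritic cell markers 6 were tested, and only *Itgax*, which adipose macrophages also express, rose in both genotypes. It was at most 0.74 FPKM on chow, and on HFD it ran from 8.51 to 26.3 FPKM in control and from 34.6 to 47.4 FPKM in *Mboat7* ASKO mice. *Itgax* thus entered the test only through the HFD mice, in which it was high, so its passes are not support for a diet difference. Of the 6, 5 were higher on HFD in control and 3 in *Mboat7* ASKO mice, with median log2 differences of 0.78 and 0.14. The sums of the list, *Itgax* included, ran from 13.9 to 33.1 and from 13.2 to 48.1 FPKM on chow and from 49.4 to 95.7 and from 60.2 to 86.1 FPKM on HFD, with *Siglech* at 0 in all HFD mice. Their part in the diet difference of *Ubd* was not tested.

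Other cell types gave less. Of 10 T and NK cell markers 2 were tested and of 7 B and plasma cell markers 3, and none passed. Control HFD mouse 0, with the highest *Ubd* of all, had sums of 15.6 FPKM for T and NK cells and 23.7 FPKM for B and plasma cells, the highest of the HFD mice for both, and a macrophage sum of 791 FPKM that lay within the range of its group. *Cd8a* was at 0 in all 4 control HFD mice. The part of these cells in the level of *Ubd* was not tested. Of 8 adipocyte markers, which mark the labelled tissue and were above 0 in every group, *Lep* rose and *Adipoq* and *Cfd* fell on HFD in both genotypes, and *Plin4* fell in *Mboat7* ASKO mice. By limma, 1 adipocyte marker passed as higher and 2 as lower in control mice, and 1 and 3 in *Mboat7* ASKO mice. Of all tested genes, 2.91% and 3.43% passed. By direction, only *Lep* of the 8 was higher on HFD in each genotype. Of 5 endothelial markers none passed, and of 7 epididymis markers only *Adam7* was found, in 1 mouse at 0.74 FPKM.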

How the data were processed

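RNA from gWAT of 16 mice was sequenced, 1 library per mouse without pooling, 4 mice in each of 4 groups. The kit was a directional mRNA one. After trimming, the authors mapped the reads with STAR to mm10 under GENCODE gene models, and the deposited FPKM values come from Cufflinks. The GENCODE release, the strand setting and the library normalization of Cufflinks are not given in the sources used here.

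Gene identifiers were matched to GENCODE M21 (99.6% found), and 22 gene names that had been turned into dates were restored from identifiers. Values were used as log2(FPKM + 1), so fold changes of low genes are understated. Genes that reached 1 FPKM in 4 or more mice (13147) entered limma 3.58.1 (R 4.3.3), with the intensity trend, all 4 groups in one fit and no covariates, with Benjamini-Hochberg adjustment per contrast (5 contrasts). A gene passed at an adjusted p under 0.05 and a log2 difference above 0.5 in size. *Mboat7* was compared by exact permutation. The script was tested on simulated data. Python 3.11.15, pandas 2.3.3, numpy 2.4.6 and matplotlib 3.10.9 were used for tables and plots.

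The mice are separate animals numbered 0 to 3 within each group, and the numbers were checked for pairing. The members and gene lists were chosen with earlier results of these data known. All 32 members are named. List genes are given as counts, with up to 5 named per list. Those that passed came first, then some others, such as those with a high mean, at the end of a range or lower on HFD. Alternatives changed the pseudocount (0.1), the filter (none, or 5 FPKM), the scaling (upper-quartile or quantile), the fit (only the compared groups, no trend, robust, replicate block) or left out each mouse.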

Additional observations from a re-analysis of the deposited data

Results flagged for a closer look

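In each group of 4 mice, a mouse far from the other 3 by Dixon's 95% limit was looked for in 117 groups of member values. Such mice numbered 22, of which 16 stood against 3 mice listed at 0, where any value above 0 passes this limit. The remaining 6 compare with about 6 that chance gives over all these groups.

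Those 16 were *Ubd* in *Mboat7* ASKO chow mouse 2 (12.7 FPKM), *Isg15* in *Mboat7* ASKO chow mouse 1 (13.3 FPKM) and *Mboat7* ASKO HFD mouse 0 (12.1 FPKM), *Ifit1* in *Mboat7* ASKO chow mouse 0 (1.83 FPKM), control HFD mouse 2 (1.45 FPKM) and *Mboat7* ASKO HFD mouse 2 (1.28 FPKM), *Irf8* in control chow mouse 2 (1.05 FPKM) and *Mboat7* ASKO chow mouse 2 (1.13 FPKM), and *Stat2* in control chow mouse 2 (0.646 FPKM). They also included *Mx1* in control HFD mouse 1 (1.28 FPKM), *Zbp1* in *Mboat7* ASKO chow mouse 3 (6.06 FPKM), control HFD mouse 0 (4.14 FPKM) and *Mboat7* ASKO HFD mouse 0 (4.25 FPKM), *Oas1a* in control chow mouse 1 (2.04 FPKM), *Rtp4* in control chow mouse 2 (6.93 FPKM) and *Ifi44* in control chow mouse 2 (2.17 FPKM).

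The other 6 had more than 1 mouse above 0. *Usp18* was 12.2 FPKM in *Mboat7* ASKO chow mouse 0 against 1.87 to 1.92 FPKM in the others, *Iigp1* was 8.99 FPKM in the same mouse against 1.41 to 2.43 FPKM, and *Irf9* was listed at 0 in it against 4.07 to 4.21 FPKM. *Stat2* was 4.35 FPKM in control HFD mouse 0 against 0.741 to 0.848 FPKM, *Ifi47* was listed at 0 in control chow mouse 0 against 1.76 to 2.06 FPKM, and *Xaf1* was 12.5 FPKM in control chow mouse 1 against 0 to 1.05 FPKM.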

How the results depend on the processing

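The diet differences of *Ubd* carry no test. No tested member passed in any contrast under the alternatives tried, except in the diet contrast of control mice. There 1 member passed when the fit held the compared groups alone (*Isg15*), and leaving out 1 mouse gave 0 to 1 members (*Isg15* without *Mboat7* ASKO chow mouse 1 or *Mboat7* ASKO HFD mouse 0, *Irf8* without control HFD mouse 1). *Isg15* entered the test only through the control HFD mice, the group in which it was high, and *Irf8* through HFD mice, in which it was high. The passes of both are therefore not support for a diet difference. For the 22 tested single-gene results, 517 of 536 alternatives kept direction and side of the threshold. Directions near 0 changed sign when 1 mouse was left out: the *Ifi27l2a* interaction ran from -0.19 to 0.37, the *Ubd* genotype difference on chow from -1.25 to 0.26, the *Ubd* interaction from -0.80 to 0.70 and the *Mboat7* genotype difference on HFD from -0.39 to 0.28. With a pseudocount of 0.1 the *Ubd* interaction was 0.48. The cause was not tested. Mice with the same number did not deviate together (correlations of 24 pairs -0.19 to 0.15, median 0.01, against -0.10 to 0.26 for 72 pairs of different number), so the numbers do not pair mice, and with the replicate block 0 members passed in every contrast. Most members rest on few fragments per mouse, and how much of their spread comes from counting was not tested.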
